A study of Rattus norvegicus with 6 samples.

Results

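The cytosolic ribosomal protein genes were followed in rat kidney tubule cells that carried a short hairpin RNA against AMPKα2. A gene was taken as a member when a probe set had a single platform symbol made of Rpl or Rps, a number and at most a short suffix, or of Rplp. The S6 kinases, whose symbols begin alike, were thereby left out. The rule found 47 genes, read by 52 probe sets, among 14217 genes with 1 symbol on the array. Each gene was read from its brightest probe set by mean over all arrays, which mattered for 5 genes that had more than 1. The 47 are 28 proteins of the large subunit, 12 of the small subunit, the stalk protein gene Rplp0, and 6 paralogs, which are copies that resemble a canonical ribosomal protein gene. They do not cover either subunit in full: Rplp1, Rplp2, Rps14, Rps19, Rpl10 and Rps27a, for example, are not among them. A further 36 probe sets join a ribosomal protein symbol with other symbols and were described only as a group.

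NRK-52E is an established epithelial line from rat kidney tubules, and RNA was read on 6 Affymetrix arrays, which report a log2 expression value per probe set. The cells of 3 arrays had received a lentivirus with an AMPKα2 shRNA (hairpin cells), and those of the other 3 a control lentivirus (control cells). All cells, controls included, had also received TGF-β1, a cytokine known to push epithelial cells to a mesenchymal form (10 ng/mL for 24 h), so no cells without it were compared here. Whether the hairpin virus held 1 sequence or several, and how many cells carried it, was not stated in the labels.

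Prkaa2, which encodes AMPKα2, read 6.64, 6.76 and 6.49 in hairpin cells, against 6.83, 6.79 and 6.89 in control cells. Its log2 change of -0.21 (SE 0.09) did not pass (limma, adjusted p = 0.0552). Prkaa1, for the related subunit AMPKα1, averaged 6.29 in hairpin cells, against 8.63 in control cells, and fell by 2.34 (limma, adjusted p = 7.04e-09). Over all probe sets the hairpin arrays spanned a narrower range, with SDs of 1.76 to 1.82, against 2.17 to 2.19 on the control arrays. The tubule keratin gene Krt8 read 12.24 in hairpin cells, against 12.49 in control cells (means, n = 3 each), while the epithelial adhesion genes Cdh1 and Epcam averaged 4.74 and 3.47 in hairpin cells, against 4.31 and 2.97 in control cells. Of 11 tubule epithelium markers 8 were called higher and 1 lower. All 4 fibroblast and all 4 leukocyte markers were also called higher, with list means per array of 5.852 to 5.995 and 5.56 to 5.75 in hairpin cells, against 4.97 to 5.01 and 4.75 to 4.85 in control cells, as were 2 of 3 endothelial markers. All 8 fibroblast and leukocyte markers had control means of 4 to 6, where 3314 of 3877 genes outside the ribosomal protein set were called higher. Of the epithelial markers called higher, Cdh1, Cdh16, Cdh2, Lrp2 and Cubn lay in that band too. Epcam and Krt18 lay below it (control means 2.97 and 3.53) and Aqp1 just above it (6.18). The part of the markers and of the narrower range in the results below was not tested. One array stood apart on the ribosomal protein genes: AMPKα2 shRNA replicate 3 gave the lowest value of its group in 37 of the 47, against 46.8% of all genes.

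A ribosome is built from ribosomal RNA and one copy each of most ribosomal proteins, and surplus proteins that find no partner are degraded. Ribosomal protein genes are therefore known for steady, high mRNA levels in dividing cells. Most of their mRNAs begin with a 5′ terminal oligopyrimidine tract (TOP), a run of C and T directly at the cap. When the kinase complex mTORC1 is active these TOP mRNAs are translated, and when it is inactive the protein LARP1 binds the tract and holds them in a stable, untranslated store. AMPK restrains mTORC1 through TSC2 and Raptor, and so lies upstream of this control. Arrays of total RNA read mRNA level and not translation.

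The ribosomal protein genes were mostly slightly lower with the AMPKα2 hairpin on the deposited values, while after cyclic loess, another scaling of the arrays, their median change was 0.06. On the deposited values 25 of 47 fell, 3 rose and 19 did not pass (limma, adjusted p under 0.05 over all genes). Together 59.6% of them were called, against 85.1% of all genes, of which 43.6% were higher and 41.5% lower. The median log2 change was -0.19, beside 0.05 over all genes, and 37 of the 47 changes lay below 0. The changes were small: the median size was 0.23, against 0.72 over all genes, and 3 of 47 were called and at least 2-fold, against 30.2% of all genes. Groups did not overlap in 40 of 47, against 87.1% of all genes. The 7 with overlap were Rpl27a, Rpl34, Rpl3l, Rpl7, Rpl7a, Rps23 and Rps28. In bulk RNA, fewer cells of one kind and less RNA per cell cannot be told apart.

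**Figure D1:**
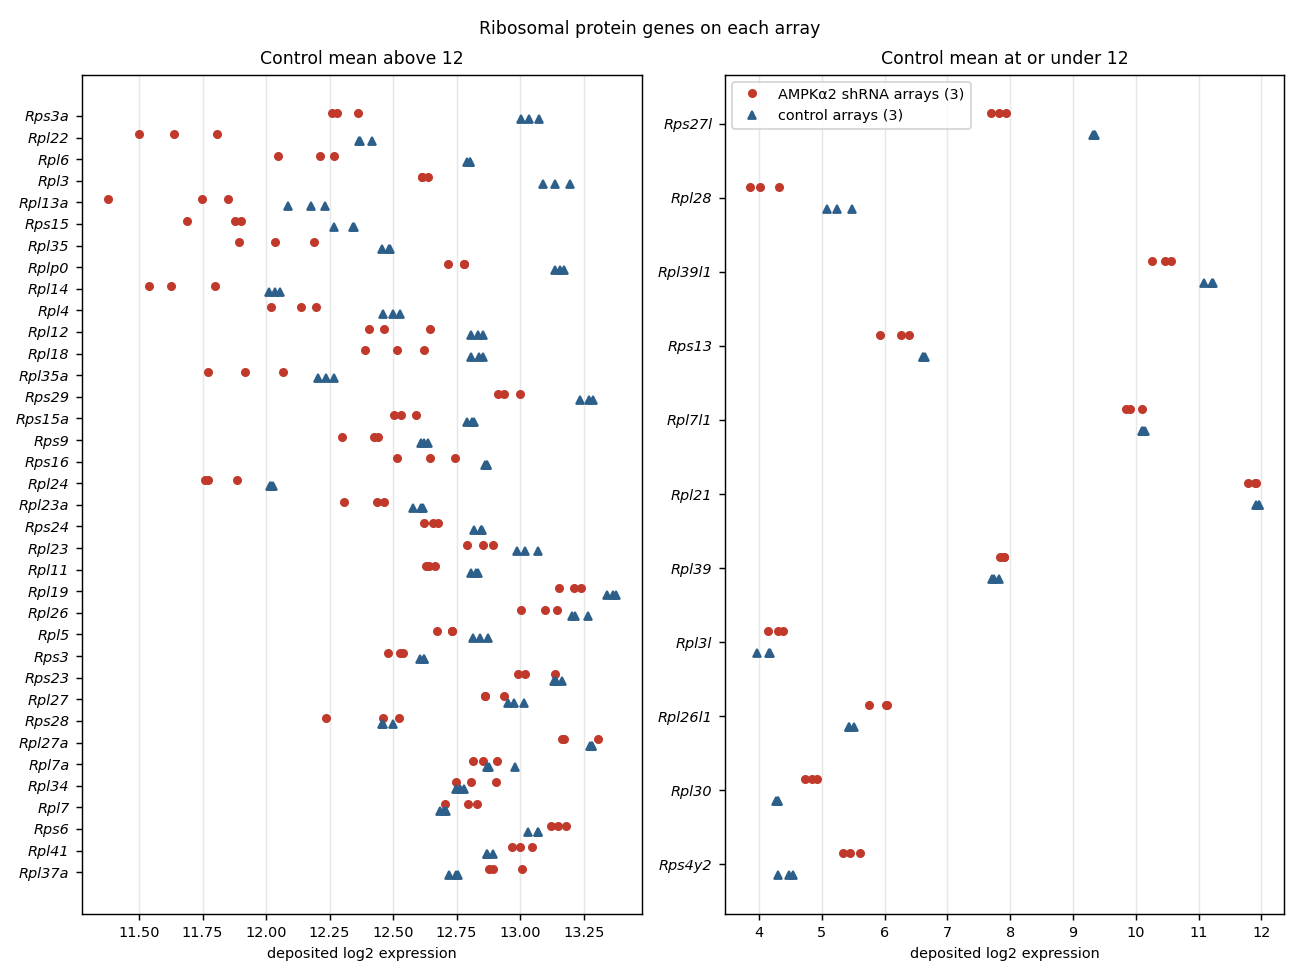
Deposited log2 expression of the 47 ribosomal protein genes on each array, AMPKα2 shRNA arrays as red circles and control arrays as blue triangles (3 each), with genes above a control mean of 12 on the left and the rest on the right, each panel on its own scale. Control arrays lie close together, and most circles sit a little to the left of their triangles on the left panel.

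**Figure D2:**
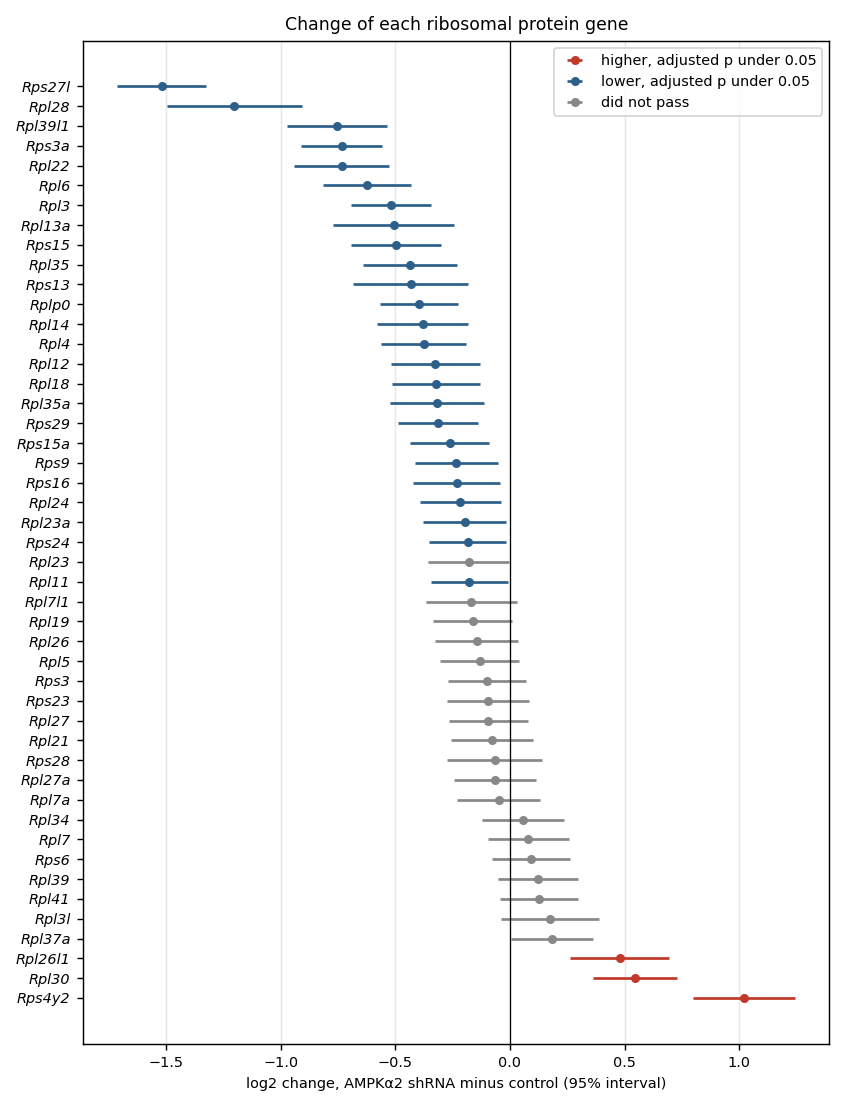
Log2 change, AMPKα2 shRNA minus control, of each ribosomal protein gene with its 95% interval from limma, sorted from the largest fall to the largest rise. Blue genes were called lower (25), red genes higher (3), and grey genes did not pass (19).

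Among the 12 small subunit genes 8 fell, 0 rose and 4 did not pass, with a median change of -0.23. Rps3a, whose protein lies near the mRNA exit of the small subunit, read 12.36, 12.26 and 12.28 in hairpin cells, against 13.07, 13.03 and 13.003 in control cells. All hairpin arrays stood well under all control arrays, a change of -0.74 (SE 0.08, limma adjusted p = 6.88e-06), which equals a fall to 0.601 of the control level. Rps15 read 11.88, 11.90 and 11.69 in hairpin cells, against 12.27, 12.35 and 12.34 in control cells. It fell by 0.50 (SE 0.09, limma adjusted p = 0.000307), again with no overlap. Rps13 was read much lower on the scale, at 6.38, 6.26 and 5.93 in hairpin cells, against 6.62, 6.61 and 6.65 in control cells, and fell by 0.43 (SE 0.11). The other falls in the small subunit were shallow: Rps29 changed by -0.31, Rps15a by -0.26, Rps9 and Rps16 by -0.23 each, and Rps24 by -0.19.

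The 4 small subunit genes that did not pass include the best known target of the S6 kinases. Rps6, which those kinases phosphorylate downstream of mTORC1, read 13.18, 13.15 and 13.12 in hairpin cells, against 13.07, 13.03 and 13.07 in control cells. The hairpin arrays were all slightly above the control arrays, but the change of 0.09 did not pass (95% interval -0.08 to 0.26, limma adjusted p = 0.275). After cyclic loess Rps6 was called higher, at 0.31. Rps3, which sits at the mRNA entry of the small subunit, read 12.54, 12.53 and 12.48 in hairpin cells, against 12.61, 12.62 and 12.62 in control cells (change -0.10, 95% interval -0.27 to 0.07). Rps23, a protein of the decoding centre, and Rps28 had changes of -0.10 and -0.07, and their groups overlapped.

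Of the 28 large subunit genes 14 fell, 1 rose and 13 did not pass, with a median change of -0.18. Rpl22, a large subunit protein that also binds other structured RNAs, read 11.64, 11.81 and 11.50 in hairpin cells, against 12.36, 12.42 and 12.37 in control cells. It fell by 0.73 (SE 0.09, limma adjusted p = 2.56e-05), to 0.601 of the control level. Rpl6 read 12.21, 12.27 and 12.05 in hairpin cells, against 12.80, 12.80 and 12.79 in control cells. The gene fell by 0.62 (SE 0.09), with no overlap. Rpl3, which reaches towards the peptidyl transferase centre, read 12.64, 12.61 and 12.61 in hairpin cells, against 13.20, 13.14 and 13.09 in control cells. It fell by 0.52 (SE 0.08, limma adjusted p = 9.11e-05). Rpl13a, whose protein is known in human cells to leave the ribosome and silence inflammatory mRNAs, read 11.85, 11.75 and 11.38 in hairpin cells, against 12.09, 12.23 and 12.18 in control cells. Its fall of 0.51 came with a wide spread among the hairpin arrays, replicate 3 being the lowest.

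Most other falls of the large subunit were smaller. Rpl35 changed by -0.44, Rpl14 and Rpl4 by -0.38 each, Rpl12 by -0.33, and Rpl18 and Rpl35a by -0.32 each. Rpl24 (-0.22), Rpl23a (-0.20) and Rpl11 (-0.18) passed close to the threshold. Rpl28 was read low on the scale, at 3.86, 4.02 and 4.32 in hairpin cells, against 5.09, 5.25 and 5.48 in control cells. It fell by 1.20 (SE 0.13, limma adjusted p = 8.38e-06), one of the 3 changes of at least 2-fold. Among 3877 other genes with a control mean of 4 to 6, 206 were called lower and 3314 higher. The only canonical gene called higher was Rpl30, at 4.74, 4.92 and 4.85 in hairpin cells, against 4.30, 4.30 and 4.27 in control cells, a rise of 0.54 (SE 0.08) in the same low band. Whether the low probe sets of Rpl28, Rpl30 and Rps13 read the main transcript of these genes was not tested.

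Several large subunit mRNAs near the top of the scale did not pass. Rpl37a, at 12.89, 13.01 and 12.88 in hairpin cells, against 12.75, 12.72 and 12.76 in control cells, had a change of 0.18 (95% interval 0.01 to 0.36, limma adjusted p = 0.051). Rpl41, which encodes one of the shortest known proteins, read 12.998, 13.05 and 12.97 in hairpin cells, against 12.87, 12.87 and 12.89 in control cells (change 0.13). In both genes every hairpin array was above every control array. Rpl23 (-0.18, limma adjusted p = 0.0533) and Rpl19 (-0.16) missed the threshold on the other side, with no overlap of groups either. Rpl27 (-0.09), Rpl21 (-0.08), Rpl27a (-0.07), Rpl7a (-0.05) and Rpl34 (0.06) had changes under 0.1 in size.

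The stalk of the large subunit recruits translation factors, and Rplp0 encodes its base. Rplp0 is also widely used as a reference gene for expression measurements. It read 12.78, 12.78 and 12.71 in hairpin cells, against 13.16, 13.17 and 13.14 in control cells. The groups did not overlap and the gene fell by 0.40 (SE 0.08, limma adjusted p = 0.000593), to 0.759 of the control level.

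Rpl5 and Rpl11 join 5S ribosomal RNA in a particle that is built into the large subunit and that, when free, binds the ubiquitin ligase Mdm2. Rpl11 read 12.63, 12.66 and 12.64 in hairpin cells, against 12.80, 12.83 and 12.83 in control cells, a change of -0.18 that passed narrowly (limma, adjusted p = 0.049). Rpl5 read 12.73, 12.73 and 12.67 in hairpin cells, against 12.87, 12.84 and 12.82 in control cells, and its change of -0.13 did not pass (95% interval -0.30 to 0.04). An array control probe set for rat 5S ribosomal RNA read 9.81, 10.17 and 9.47 in hairpin cells, against 9.05, 9.06 and 9.02 in control cells. This probe set was higher by 0.78 on average and carries no test here. Whether its reading follows the amount of 5S ribosomal RNA in the cells was not tested.

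The 6 paralogs held 2 rises, 2 falls and 2 genes that did not pass. Rps27l, a copy of the small subunit gene Rps27, read 7.82, 7.93 and 7.69 in hairpin cells, against 9.32, 9.36 and 9.33 in control cells. This was the largest change of all 47 genes, -1.52 (SE 0.09, limma adjusted p = 7.12e-08), or a fall to 0.348 of the control level. Of 3773 other genes with a control mean of 8 to 10, 2981 were called lower, with a median of -0.80. Rpl39l1, a copy of Rpl39, read 10.46, 10.56 and 10.25 in hairpin cells, against 11.09, 11.21 and 11.23 in control cells. It fell by 0.76 (SE 0.10), while Rpl39 itself, at 7.84, 7.90 and 7.90 in hairpin cells, against 7.75, 7.70 and 7.82 in control cells, did not pass (change 0.12, 95% interval -0.05 to 0.30). Under quantile normalization and cyclic loess, described below, Rpl39 was called higher (0.71 and 0.68). On the control arrays the Rpl39 probe set averaged 7.76, against 11.18 for that of Rpl39l1. Which transcripts each of these probe sets reads was not tested.

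Rps4y2, a copy of the small subunit gene Rps4x that RefSeq places on rat chromosome 4, read 5.34, 5.61 and 5.45 in hairpin cells, against 4.55, 4.48 and 4.30 in control cells. It rose by 1.02 (SE 0.10, limma adjusted p = 3.52e-06), the only rise of at least 2-fold among the 47. Rpl26l1, a near copy of Rpl26, read 6.02, 5.74 and 6.04 in hairpin cells, against 5.51, 5.44 and 5.43 in control cells, and rose by 0.48 (SE 0.10). Its partner Rpl26, at 13.15, 13.10 and 13.004 in hairpin cells, against 13.27, 13.21 and 13.21 in control cells, had a change of -0.15 that did not pass. All 3 genes called higher, Rps4y2, Rpl30 and Rpl26l1, lay in the band of control means from 4 to 6, where the median over other genes was 0.80.

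The last 2 paralogs did not pass. Rpl7l1, known in human cells as a factor of large subunit assembly, read 10.10, 9.91 and 9.85 in hairpin cells, against 10.11, 10.15 and 10.11 in control cells (change -0.17). Its partner Rpl7, at 12.80, 12.83 and 12.70 in hairpin cells, against 12.68, 12.71 and 12.70 in control cells, had a change of 0.08. Rpl3l, the form of Rpl3 known from heart and skeletal muscle, read 4.14, 4.38 and 4.31 in hairpin cells, against 3.98, 4.17 and 4.16 in control cells (change 0.17, groups overlapping). Sequences this alike can share probes, so a paralog and its partner may not be read separately.

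Different probe sets of a gene did not always read alike. A second probe set of Rps24 averaged 6.41 in hairpin cells, against 8.18 in control cells, and fell by 1.77, against -0.19 for the brighter one. A second probe set of Rpl7 averaged 7.84 in hairpin cells, against 9.12 in control cells, and fell by 1.28, where the brighter one did not pass. Second probe sets of Rpl3 (-0.39) and Rpl7l1 (-0.32) also fell, and that of Rpl14 had a change of 0.05. Which transcripts the dimmer probe sets read was not tested. The 36 probe sets that join a ribosomal protein symbol with other symbols had 0 called higher and 16 called lower, where 47.8% and 34.1% of all probe sets were. Their median change was -0.19, as in the named genes, with a range of -1.30 to 0.14, and 30 of them stood above 12 on the control arrays.

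The ribosomal protein genes crowd the top of the scale. The highest deposited value on any array was 13.84, and 36 of the 47 genes had a control mean above 12, 15 of them within 1 of that maximum. Above 13 lay 10 ribosomal protein genes and 10 other genes. Bright probe sets can be compressed on arrays, so that true differences read smaller. For this reason the genes were set beside other genes of the same control level. Among the 36 ribosomal protein genes above 12, 21 fell, 0 rose and the median change was -0.21. Among 81 other genes above 12, 50 fell, 11 rose and the median was -0.35.

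Within narrower bands the order of the medians was not the same throughout. At control means of 12 to 12.5, 8 of 9 ribosomal protein genes fell with a median of -0.38, beside 32 of 47 other genes with a median of -0.55. From 12.5 to 13, 9 of 17 fell with a median of -0.18, beside 14 of 24 other genes with a median of -0.29. Above 13, 4 of 10 fell with a median of -0.17, beside 4 of 10 other genes with a median of -0.10. Changes of at least 2-fold were called in 0 of the 36 ribosomal protein genes above 12 and in 12 of the 81 others. The lowest of those other genes stood at -2.79. Spike controls were read at the bright end too. The 4 cre spike controls, RNA added in fixed amounts that read 12.5 to 13.4 on the control arrays, were higher by 0.11 on average on the hairpin arrays. The 14 bioB, bioC and bioD spike readings, also of RNA added in fixed amounts, differed by -0.88. They read 7.99 to 11.8 on the control arrays, and other genes at control means of 8 to 10 had a median change of -0.80.

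**Figure D3:**
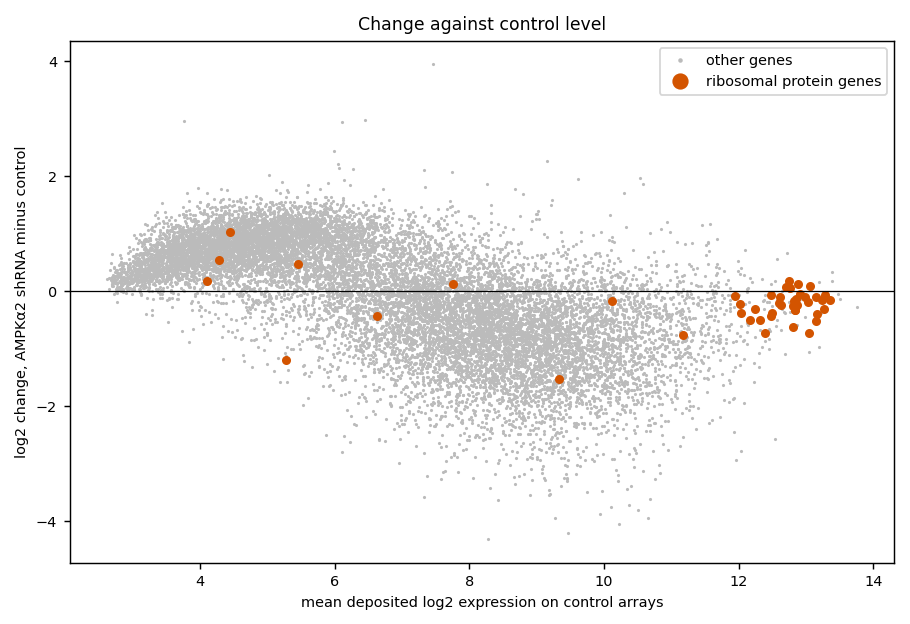
Log2 change, AMPKα2 shRNA minus control, against the mean deposited log2 expression in control cells, for 47 ribosomal protein genes (orange) and all other genes (grey). Most orange points gather above 12 between -0.74 and 0.18, while grey points at 4 to 6 lie mostly above 0 and those at 8 to 10 mostly below it.

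How many ribosomal protein genes were called depended on how the arrays were scaled. After quantile normalization, which gives every array the same distribution, 16 were lower and 6 higher, with a median of -0.09, where 28.9% of all genes were lower and 43.8% higher and the median of all genes was 0.16. After cyclic loess, which evens out differences along the level, 8 were lower and 13 higher, with a median of 0.06, where 31.5% of all genes were lower and 40.2% higher and the median of all genes was 0.09. After median centring 37 were lower and 3 higher, with a median of -0.40, where 48.2% of all genes were lower and 35% higher and the median of all genes was -0.17. In each scaling the median of the ribosomal protein genes was below that of all genes. Beside other genes above 12 on the control arrays the order was the opposite. There the ribosomal protein genes had a median of -0.10 against -0.19 after quantile normalization. After cyclic loess these medians were 0.07 against 0.01, and after median centring -0.42 against -0.57.

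A core of 8 genes kept one call in all 4 scalings, where 52% of all genes did. Rps27l, Rpl28, Rps3a, Rpl22, Rpl6, Rpl3 and Rps13 were lower in each, and Rps4y2 was higher in each. Rpl28, Rps13 and Rps4y2 were read low on the scale, at control means of 5.27, 6.62 and 4.44. Quantile normalization and cyclic loess left Rps3a at -0.62 and -0.44, and Rpl22 at -0.50 and -0.33. For Rps27l these were -0.81 and -0.82, and for Rpl28 -1.59 and -1.77. Rps4y2 stood at 0.59 and 0.42. The calls of Rpl30 and Rpl26l1 were lost in both: Rpl30 had changes of 0.08 and 0.00, and Rpl26l1 of 0.18 and -0.01. The fall of Rplp0 was -0.31 after quantile normalization and -0.16, not called, after cyclic loess, and that of Rpl39l1 was -0.23 and -0.18, not called in the second.

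**Figure D4:**
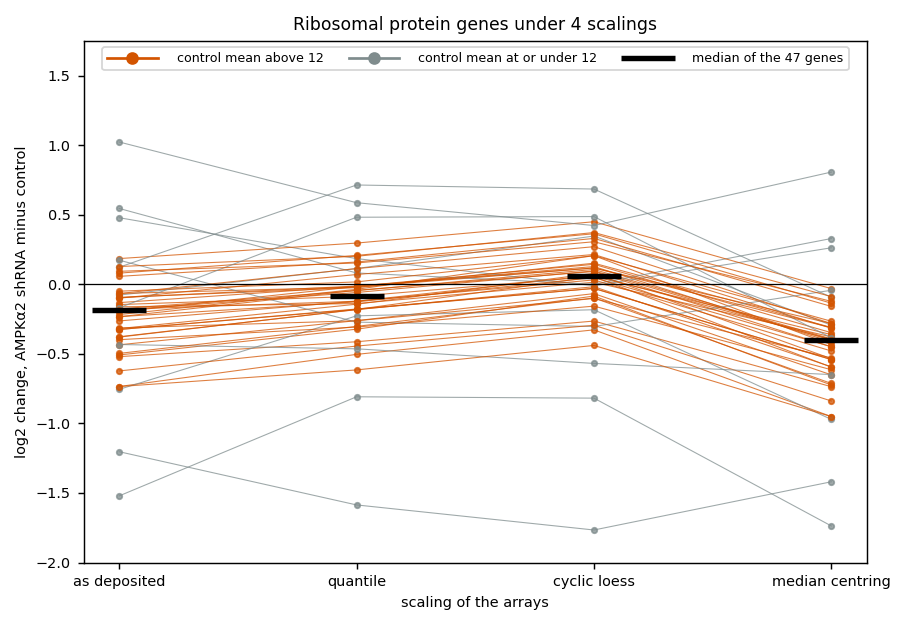
Log2 change, AMPKα2 shRNA minus control, of the 47 ribosomal protein genes (1 line each) under the deposited values and 3 other scalings, with black bars for their medians (-0.19, -0.09, 0.06 and -0.40). Median centring shifts every gene alike from its deposited value, while under cyclic loess the order changes among genes above 12. Rpl14, for example, goes from -0.38 to 0.05 and Rpl19 from -0.16 to 0.01.

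The 3 AMPKα2 shRNA arrays did not place these genes at one level. The median deviation of the ribosomal protein genes from the control mean was -0.17, -0.16 and -0.26 on hairpin replicates 1, 2 and 3. Replicate 2 gave the highest hairpin value in 29 of the 47. The median SD of a ribosomal protein gene was 0.079 among the hairpin arrays and 0.023 among the control arrays. Over all genes it was 0.132 among the hairpin arrays and 0.072 among the control arrays. Without hairpin replicate 3, 24 genes were lower and 4 higher, with a median of -0.17. The 3′ minus 5′ readings of β-actin, a sign of RNA integrity, averaged 0.45 in hairpin cells, against 0.42 in control cells, and those of GAPDH averaged -0.16 in hairpin cells, against -0.01 in control cells. Their part in the results was not tested.

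Windows around the RefSeq start sites were searched for pyrimidine runs, since these mRNAs are known for such a run at the cap. RefSeq promoters of build GRCr8 were found for 42 of the 47 genes, and the longest run of C and T was sought from 40 bases before to 25 bases after each annotated start. A set of 8 is printed, on the gene's own strand with the longest run in capitals. Among genes above 12 whose run of at least 6 bases begins within 8 bases of the start, Rps3a, Rpl22 and Rps15 fell most. Rplp0 is the stalk gene, and Rps27l had the largest fall of all. Rpl37a, Rps23 and Rpl27a did not pass and have runs that are alike or longer. Genes that did not pass and have short runs, such as Rpl26 and Rpl7l1 (5 bases each), are not printed. A link between run and change was not tested.
Rps3a: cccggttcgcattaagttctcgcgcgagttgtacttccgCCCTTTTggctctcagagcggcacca
Rpl22: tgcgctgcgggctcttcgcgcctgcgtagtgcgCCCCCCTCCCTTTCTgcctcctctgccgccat
Rps15: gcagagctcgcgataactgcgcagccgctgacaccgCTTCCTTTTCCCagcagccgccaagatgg
Rplp0: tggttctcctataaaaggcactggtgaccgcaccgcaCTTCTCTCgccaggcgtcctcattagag
Rpl37a: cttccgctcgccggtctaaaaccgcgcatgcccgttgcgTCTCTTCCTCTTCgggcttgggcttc
Rps23: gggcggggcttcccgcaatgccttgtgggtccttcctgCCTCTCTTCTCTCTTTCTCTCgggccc
Rpl27a: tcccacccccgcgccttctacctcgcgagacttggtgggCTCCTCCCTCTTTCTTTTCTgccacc
Rps27l: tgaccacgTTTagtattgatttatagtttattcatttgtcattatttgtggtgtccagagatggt
These windows lie at chr2:173827018-173827082 (minus strand) for Rps3a, chr5:168117921-168117985 (plus) for Rpl22, chr7:10068091-10068155 (minus) for Rps15 and chr12:46718366-46718430 (minus) for Rplp0. The others lie at chr9:81748051-81748115 (plus) for Rpl37a, chr2:23814477-23814541 (plus) for Rps23, chr1:172974533-172974597 (plus) for Rpl27a and chr8:76443618-76443682 (plus) for Rps27l. The runs of Rps23 and Rpl27a are 21 and 20 bases long and that of Rpl37a 13, while the falling genes Rps3a, Rpl22 and Rps15 have runs of 7, 15 and 12. In Rps27l the longest run is 3 bases.

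A run of at least 8 was found in 31 of the 42 genes (73.8%), against 25.4% of 33469 rat promoters in the same window. Here and for the motifs below, each of the 42 genes was counted by the first promoter listed for it, while all 33469 promoters were kept. For a run of at least 6 the shares were 88.1% and 53.1%. These runs can lie anywhere in the window, so the counts are not counts of tracts at the cap. The longest run of Rps6 begins at -27 and that of Rpl41 at -39 from the annotated start. By outcome, 14 of 23 genes called lower and 15 of 17 that did not pass had a run of at least 8, and the median run was 10 and 12 bases. Searched on both strands of the full 300-base windows, the ETS core CCGGAAG was in 10 of 42 genes (23.8%), against 8.75% of all promoters, in 3 of 23 genes called lower and in 7 of 17 that did not pass. The YY1 core AAGATGGC was in 4 (9.52%, against 3.17%), the TATA box TATAAA in 6 (14.3%, against 14.2%) and the E-box CACGTG, a motif that Myc binds, in 3 (7.14%, against 6.42%). The last 3 letters of the ETS core are the first 3 of the YY1 core, so these matches can overlap. A match describes letters in a window and no site, and an annotated start may differ from the one used in these cells.

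Other parts of the ribosome programme were read from lists of genes. Their counts stand beside 41.5% of all genes called lower and 43.6% higher on the deposited values, and beside 2981 lower and 289 higher of 3773 other genes at control means of 8 to 10. Of ribosomal proteins that the symbol rule misses, Rpsa read 12.37, 12.26 and 12.21 in hairpin cells, against 12.87, 12.85 and 12.87 in control cells, and fell by 0.58 (SE 0.08, limma adjusted p = 5.09e-05). Rack1, a signalling scaffold on the small subunit, had a change of -0.15 and did not pass. Among 14 other TOP mRNAs, which mostly encode translation factors, 11 fell and 1 rose, with a median of -1.07. The helicase gene Eif4a2 read 10.14, 10.34 and 9.93 in hairpin cells, against 11.78, 11.80 and 11.74 in control cells (change -1.64), and the initiation factor gene Eif3a read 9.65, 9.42 and 9.42 in hairpin cells, against 11.004, 11.03 and 11.11 in control cells (change -1.55). Naca, of the nascent chain complex, rose by 0.20 but was not called after median centring (-0.02). By quantile scaling 10 were lower and 3 higher (median -0.60), and by cyclic loess 8 were lower and 3 higher (median -0.51), and 8 of 14 were lower in all 4 scalings.

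The regulators of TOP mRNAs and of mTORC1 were called about as often as all genes (82.4% against 85.1%). Of 17, 12 fell and 2 rose, with a median of -0.36. By quantile scaling 6 were lower and 8 higher (median 0.15), and by cyclic loess 7 were lower and 8 higher (median 0.10). Deptor, an inhibitor of mTOR, read 7.45, 7.36 and 7.34 in hairpin cells, against 9.26, 9.15 and 9.24 in control cells (change -1.83). Myc, which drives transcription of ribosome genes, read 7.74, 7.38 and 7.21 in hairpin cells, against 8.92, 9.05 and 8.97 in control cells (change -1.54). Both were lower in all 4 scalings, as was Larp1 (-1.44), which binds the TOP tract. The rises were Tsc1, a brake on mTORC1 (0.47), and Mlst8, a subunit of mTORC1 (0.42), the second not called after median centring. Tsc2, through which AMPK restrains mTORC1, was lower in all 4 scalings (-0.86 on the deposited values). Mtor fell by 0.36 and the S6 kinase gene Rps6kb1 by 0.22 on the deposited values. Mtor was not called after quantile normalization (0.15) or cyclic loess (0.10), and Rps6kb1 was called higher in both (0.36 and 0.33).

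RNA polymerase I makes the large ribosomal RNAs. Of 16 of its subunits and factors 11 fell and 0 rose, with a median of -0.57 on the deposited values. By quantile scaling 5 were lower and 6 higher (median 0.00), and by cyclic loess 6 were lower and 6 higher (median -0.04). Taf1d, a subunit of the promoter selectivity factor, read 8.32, 8.52 and 8.12 in hairpin cells, against 10.33, 10.31 and 10.33 in control cells (change -2.002). Rrn3, which brings the polymerase to the promoter, read 7.59, 7.69 and 7.34 in hairpin cells, against 9.11, 9.19 and 9.07 in control cells (change -1.58). Both were among the 5 genes of the list called lower in all 4 scalings.

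Among 93 ribosome biogenesis factors 74 fell and 6 rose, with a median of -0.72. By quantile scaling 37 were lower and 29 higher (median -0.03), and by cyclic loess 38 were lower and 28 higher (median -0.07). In all 4 scalings 37 were lower and 5 higher. Dimt1, which methylates 18S ribosomal RNA, read 5.24, 5.55 and 5.18 in hairpin cells, against 8.64, 8.74 and 8.67 in control cells (change -3.36). Utp6, of the processome that cuts the small subunit precursor, fell by 2.77. The largest rises were those of the helicase gene Dhx37 (1.40) and of Rrp12 (0.67), both also of small subunit maturation. Of 19 chaperones and importers that serve ribosomal proteins 14 fell and 2 rose, with a median of -0.93. By quantile scaling 12 were lower and 4 higher (median -0.27), and by cyclic loess 13 were lower and 3 higher (median -0.29). The importin gene Ipo7 (-2.30) and Bccip, a chaperone of Rpl23 (-2.18), fell most, and Aamp (0.26) and Naca (0.20) rose, neither called after median centring.

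Of 18 genes of the 5S particle and of the responses to idle ribosomal proteins or stalled ribosomes 13 fell and 2 rose, with a median of -0.73. By quantile scaling 7 were lower and 4 higher (median -0.12), and by cyclic loess 8 were lower and 3 higher (median -0.18). Ccng1, which encodes cyclin G1, fell by 2.93, and Gtf3a, whose protein is needed to transcribe 5S ribosomal RNA, fell by 1.63. The ribosomal proteins of mitochondria, which serve a separate ribosome, had 55 falls and 4 rises among 73 genes, with a median of -0.51. By quantile scaling 22 were lower and 33 higher (median 0.17), and by cyclic loess 24 were lower and 32 higher (median 0.14). Mrpl51 (-2.67) and Mrps23 (-2.19) fell most, and Mrpl57 (1.42) and Mrpl16 (0.54) rose most. On the deposited values each of these lists had a median further below 0 than that of the cytosolic ribosomal protein genes. Apart from Rpsa and Rack1, the lists had median control levels of 8.67 to 11.8. Genes outside the ribosomal protein set at control means of 8 to 10 and of 11 to 12 had medians of -0.80 and -0.66. The bioB, bioC and bioD spike readings, at 7.99 to 11.8 on the control arrays, differed by -0.88. How much of the falls in these lists goes with such a shift along the scale was not tested. After quantile normalization the mitochondrial, regulator, polymerase I and biogenesis lists had medians above that of the ribosomal protein genes (-0.09). The remaining lists stayed below it.

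**Figure D5:**
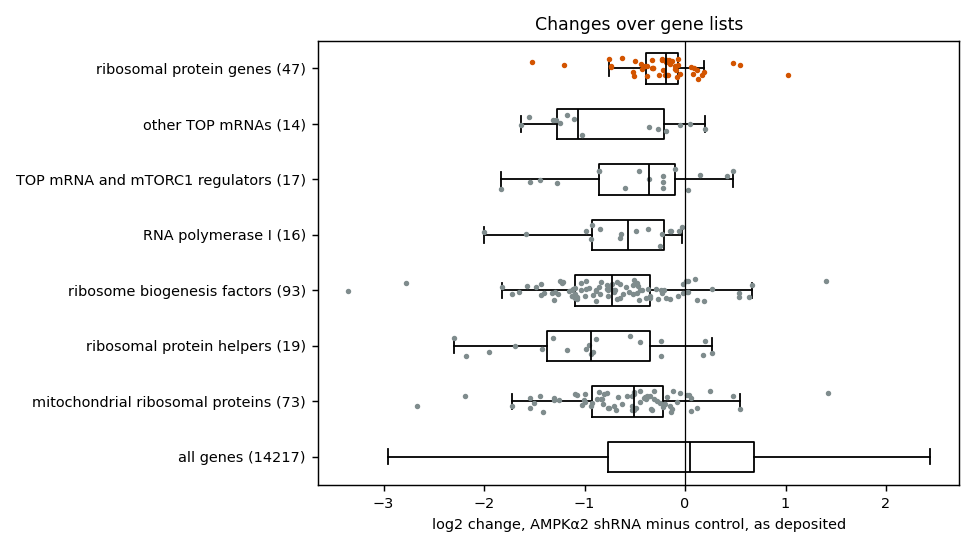
Log2 change, AMPKα2 shRNA minus control, as deposited, for the ribosomal protein genes (orange) and 6 related lists (grey points are genes, boxes give the median and quartiles, whiskers reach the last gene within 1.5 box lengths), with all 14217 genes as a box without points at the bottom. The orange points form the narrowest box, with a median of -0.19.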

How the data were processed

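Total RNA was extracted with Trizol and labelled as biotinylated cRNA, per the labels' protocols. The deposited values are log2 expression as the authors made it, with 1 number for each probe set on each array. The background correction, summary and normalization behind them were not stated in the labels or headers. The 57 array control probe sets were left out of all gene tests, and 20826 of the other 31042 had 1 symbol in the platform annotation.

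Groups were taken from the labels, which name the 3 arrays of each group as biological replicates. Differences were fitted in R 4.3.3 with the lmFit and eBayes steps of limma 3.58.1 (2-sided, no covariate), and p-values were Benjamini-Hochberg adjusted over 14217 genes with a threshold of 0.05. Changes are AMPKα2 shRNA minus control, and 95% intervals are not adjusted. The number of arrays limits precision, and with 3 against 3 an exact permutation test of 1 gene cannot give a p under 0.1. The steps were tested on simulated data.

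The member genes and all lists were chosen with earlier results of these data known. Every member could be named. Values on each array are given for the 6 largest rises and falls that passed, for genes picked by role, and for paralogs with their partners, and up to 2 rising and 2 falling genes are named in other lists. Mtor, Rps6kb1, Larp1, Tsc2, Rpl13a, Rps15, Rpl37a and Rpl41 were described in addition, after their values were seen. Alternatives were quantile normalization, cyclic loess in 3 iterations, median centring, other probe set choices, a filter on level, an intensity trend, a replicate block, a threshold of 0.01, and leaving out bright genes or each array.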

Additional observations from a re-analysis of the deposited data

How the results depend on the processing

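Counts of ribosomal protein genes called higher and lower, and their median change, were recomputed under 16 alternatives. Quantile normalization gave 6 higher, 16 lower and a median of -0.087. Cyclic loess gave 13 higher, 8 lower and a median of 0.056, the one reversal of the median, and median centring moved the median to -0.40. Without the lowest 50% of genes 1 was called higher, since the 3 genes called higher were themselves among the 6 left out and Rpl37a passed instead (0.18), and with an intensity trend 5 were, Rpl37a and Rpl41 being added. Leaving out 1 array at a time gave 3 to 4 higher, 19 to 25 lower and medians of -0.22 to -0.17. The count of 19 came without any one of the control arrays, when Rpl11, Rpl23a, Rpl24, Rps16, Rps24 and Rps9 no longer passed. At a threshold of 0.01, 19 were lower, and without the genes above 13, 21 were.

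Single genes changed sign, with a call on one side, after quantile normalization (Rpl3l -0.27, Rpl7l1 0.48) and after cyclic loess. There Rpl3l was -0.30, Rpl26l1 -0.011, Rpl11 0.11, Rpl14 0.054, Rpl21 0.35, Rpl23a 0.13, Rpl24 0.21, Rpl35a 0.079, Rpl7a 0.21, Rpl7l1 0.49, Rps15a 0.031, Rps16 0.047, Rps24 0.10, Rps28 0.27, Rps3 0.21 and Rps9 0.092. The mean of all probe sets of a gene put Rpl7 at -0.60, through its dimmer probe set. Without a change of sign, Rpl37a, Rpl39, Rpl41 and Rpl7 gained a call as higher after both quantile normalization and cyclic loess. Rpl34 and Rps6 did so after cyclic loess only, and after median centring 12 genes gained a call as lower. For the scalings the cause was not tested.

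Same-numbered arrays did not deviate together (correlations of -0.02, 0.01 and -0.10), so the numbers were not taken to pair them. With the replicate block 3 were higher and 21 lower, with a median of -0.19, and Rpl11, Rpl23a, Rpl24 and Rps24 no longer passed. Signal over background per probe set was not used here, and values near the top of the scale may be compressed.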
